A study of Danio rerio with 18 samples.

Results

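The zebrafish gene cyp2k18 (ENSDARG00000104593) encodes a cytochrome P450 of family 2, subfamily K. It was found in the deposited transcript table by its symbol, which matched 1 transcript (cyp2k18-201, ENSDART00000157959) of 59876 and 1 gene of 32520, so that the transcript and the gene sum are the same number. The gene was chosen because earlier results on these libraries had shown it to be higher in exposed larvae. Its own levels and fold changes are therefore given here as a description, with no test, and tests are given only for other genes. The transcript is annotated as protein coding on the forward strand of chromosome 3, from 12710350 to 12715432, with coordinates as in the deposited table, for which the sources used here name no genome build.

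RNA was sequenced from whole bodies of AB wild type larvae at 120 hours post fertilisation, in 6 groups of 3 samples. Of these groups 5 had been exposed to PFBS (perfluorobutanesulfonic acid, a perfluorinated surfactant with a short carbon chain) at 7, 70, 700, 3500 or 7000 µM, and 1 held unexposed controls. The study asked how the developmental neurotoxicity of PFBS compares with that of its longer-chain relative PFOS. Total counts lay between 14937147 and 19267232 per library, and 1 of them, replicate 3 at 7000 µM, scored 74.5 on the first principal component (30.9% of the variance), where every other library scored at most 34.1. The sources used here do not name the vehicle, the time of exposure or how many larvae made up a sample. They do not say either whether samples came from separate clutches, so a p-value below covers the spread between samples of a group, which may be only technical. In whole-body RNA, fewer cells of a type and less RNA per cell cannot be told apart.

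Cytochromes P450 are haem proteins that insert an oxygen atom into fatty acids, steroids, vitamins and foreign compounds. Most sit in the membrane of the endoplasmic reticulum and receive electrons from NADPH through cytochrome P450 oxidoreductase, in some reactions with cytochrome b5. Vertebrate family 2 holds many of the enzymes that metabolise drugs, and subfamily K is a branch of it known from fish. Transcription of many P450 genes is switched on by receptors that bind foreign or lipid molecules, chiefly the aryl hydrocarbon receptor (AhR), the pregnane X receptor (PXR) and the peroxisome proliferator-activated receptors (PPAR). The substrates of the cyp2k18 enzyme are not described in the files.

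cyp2k18 was a minor P450 of unexposed larvae and ranked among the 3 most abundant family 2 genes, per length, at the 3 highest concentrations. It took 71, 69 and 46 reads in the control libraries, 128, 101 and 110 in those at 7 µM, and 227, 78 and 119 in those at 70 µM. The libraries at 700 µM held 365, 466 and 702 reads of it, those at 3500 µM 720, 784 and 710, and those at 7000 µM 655, 519 and 579. Every library from 700 µM upward had more reads of the gene than any library at 70 µM or below, and the control libraries held the 3 lowest read counts of the 18.

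Per length and library, as the authors' deposited TPM (a level scaled for transcript length and library size) give it, the level was 2.15, 2.63 and 1.48 TPM in controls, 4.12, 2.96 and 3.66 TPM with 7 µM and 8.16, 2.61 and 3.53 TPM with 70 µM. With 700 µM it was 12.67, 13.27 and 22.61 TPM, with 3500 µM 20.92, 26.75 and 19.33 TPM and with 7000 µM 19.81, 17.46 and 18.24 TPM. The group means ± SD (n = 3 each) were 2.09 ± 0.578, 3.58 ± 0.584, 4.77 ± 2.97, 16.2 ± 5.57, 22.3 ± 3.91 and 18.5 ± 1.2 TPM, from control to the highest concentration.

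**Figure D1:**
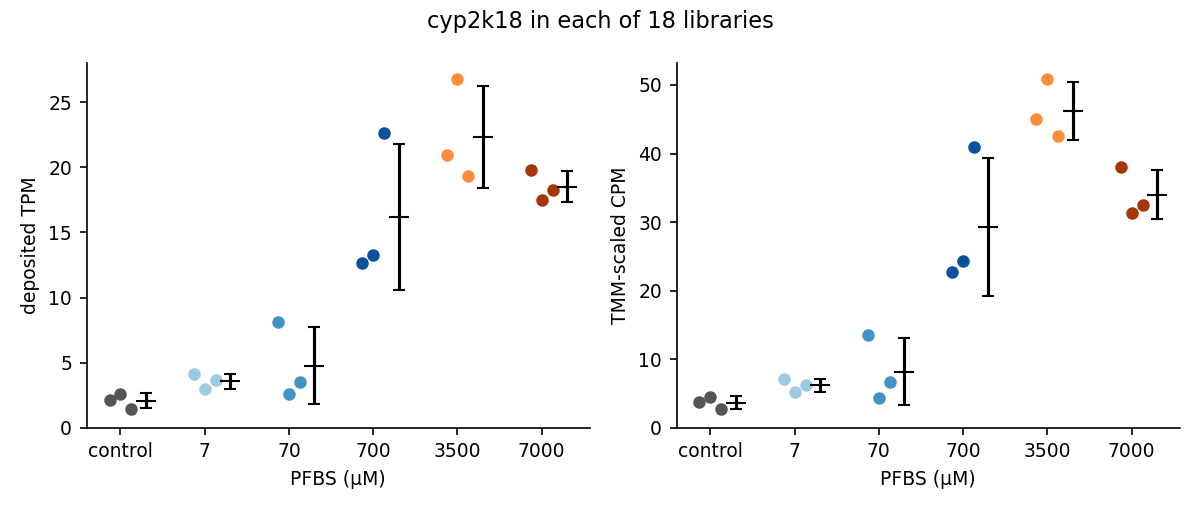
Level of cyp2k18 in each of 18 libraries, against PFBS concentration in µM, as deposited TPM (left) and as CPM with TMM scaling (right). Points are libraries, and bars give the mean ± SD of the 3 libraries of a group. The libraries at 700, 3500 and 7000 µM all lie at or above 12.67 TPM, and those of the other groups at or below 8.16 TPM.

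The order of the group means was control, 7, 70, 700, 7000 and 3500 µM. Between neighbours in concentration, the libraries at 7 µM did not overlap with controls (a ratio of 1.72 between mean TPM), those at 70 µM overlapped with 7 µM, and those at 700 µM did not overlap with 70 µM (a ratio of 3.4). How many of all genes show such a separation from controls was not counted, here or for bbox1 and elovl2 below. As cyp2k18 was chosen for being higher with exposure, its separation at 7 µM is not read as a rise. The step between 70 and 700 µM was the largest of the 5 on both scales.

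The mean was highest at 3500 µM on both scales, while the overlap of the libraries depended on the scale. In TPM the ranges at 3500 and 700 µM overlapped, and so did those at 7000 and 3500 µM, where the ratio of means was 0.829. In CPM, which are read counts scaled to library size and to a factor per library from the trimmed mean of M values (TMM), the means were 46.2 ± 4.23 at 3500 µM and 29.3 ± 10.1 at 700 µM, and 34 ± 3.6 at 7000 µM (SD, n = 3 each). In CPM the 3500 µM libraries lay above all libraries at 700 and 7000 µM, and those at 7000 µM lay within the range at 700 µM. The TMM factors were 0.893, 0.962 and 0.894 at 3500 µM and between 0.969 and 1.073 in the other groups, and a factor below 1 raises the CPM of a library.

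Relative to controls, the edgeR fit over all 18 libraries gave log2 fold changes of 0.75 ± 0.34 and 1.15 ± 0.33 (± SE) for the 2 lowest concentrations, 2.99 ± 0.32 for 700 µM, 3.65 ± 0.32 for 3500 µM and 3.21 ± 0.32 for 7000 µM. These are 1.68-, 2.22-, 7.95-, 12.5- and 9.23-fold. Without replicate 3 at 7000 µM, the library that stands apart, the log2 fold change of cyp2k18 at that concentration was 3.24. All 3 exposed libraries lay above all 3 controls at each concentration except 70 µM, where 2 did. The share of all genes that show this was not counted. In the authors' deposited table the log2 fold changes of cyp2k18 are 0.74, 1.13, 2.98, 3.66 and 3.25 in the same order. Among 21046 genes tested, its log2 fold change ranked 256, 74, 5, 4 and 9 from the top, in order of concentration.

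The spread between libraries was uneven across groups. The coefficient of variation of CPM was 25.2% in controls and 15.6, 58.7, 34.6, 9.16 and 10.6% from the lowest to the highest concentration, where counting error alone gives 12.7% in controls and 9.41, 8.41, 4.42, 3.68 and 4.14%. The wide spread at 70 µM came with 13.6 CPM in replicate 1, against 4.31 and 6.73 CPM in the other libraries of that group. Without replicate 1 the log2 fold change at 70 µM was 0.58, against 1.15 with it.

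By mean TPM, the rank of cyp2k18 among the 43 genes of family 2 was 22 in controls, 13 for 7 µM, 8 for 70 µM, 3 for 700 µM and 2 for both 3500 and 7000 µM, where rank 1 is the highest level. Among all 86 genes with a cyp symbol its rank was 42 in controls, 5 at 700 µM and 3 at 3500 and 7000 µM. Over the whole table its rank in TPM was 16059 of 32520 genes in controls and 3290 at 3500 µM.

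The subfamily comprises 10 genes in the table under 9 symbols, all on chromosome 3. Of these, 8 lie in a row on the forward strand, from 12710350 to 12826387, and cyp2k18 is the first of the row, followed by cyp2k20, cyp2k19, cyp2k21, cyp2k17, cyp2k16, cyp2k8 and a cyp2k6 gene (ENSDARG00000098995). The remaining genes, cyp2k22 and a second entry with the symbol cyp2k6 (ENSDARG00000009874, whose description reads polypeptide 31), lie on the reverse strand of the same chromosome, from 8229466 to 8246315 and from 8261132 to 8272632. Of the 9 relatives 5 passed the filter on low counts (cyp2k19, cyp2k21, cyp2k16, cyp2k8 and ENSDARG00000098995) and 4 did not. The sources used here do not say how reads that match several of these similar genes were assigned, so values of single cyp2k genes carry that uncertainty.

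cyp2k18 held most of the summed cyp2k level from 700 µM upward. Its share of the summed TPM of all 10 was 19.2 ± 5.16% in controls, and 27 ± 4.1, 34 ± 7.65, 67 ± 6.85, 71.5 ± 2.8 and 68.3 ± 4.52% from 7 to 7000 µM (SD, n = 3 each). The summed TPM of the 9 relatives was 8.74 ± 0.471 in controls, 9.67 ± 0.524, 8.49 ± 2.24, 7.6 ± 0.186 and 8.83 ± 1.14 at 7, 70, 700 and 3500 µM, and 8.58 ± 1.35 at 7000 µM (SD, n = 3 each). The group means of this sum thus lay between 7.6 and 9.67 TPM, while those of cyp2k18 lay between 2.09 and 22.3 TPM.

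Of the 5 relatives tested, edgeR's quasi-likelihood test with Benjamini-Hochberg adjustment called 0 at 7, 70 and 700 µM, 1 at 3500 µM and 2 at 7000 µM. The share of all 21046 genes called was 0.0333%, 0.28%, 3.2%, 9.47% and 25% at these concentrations. Split by direction, 0.0143%, 0.185%, 1.27%, 5.14% and 12.7% of all genes were called higher and 0.019%, 0.095%, 1.93%, 4.33% and 12.3% lower. At an unadjusted p under 0.05 there were 1, 2 and 3 relatives at 7, 70 and 700 µM. Of all 21046 genes tested, 1057, 2882, 4429, 5683 and 8152 had such a p, from the lowest to the highest concentration. DESeq2 called 0 relatives at 7, 70 and 700 µM (with no adjusted p for 2 of the genes at 70 µM). The call at 3500 µM and 1 of those at 7000 µM are of a cyp2k6 gene that passed the low-count filter only through its high libraries, so they are not read as a result. Of the other 4 relatives edgeR called 0 at 3500 µM, with 2 at an unadjusted p under 0.05 and 0 by DESeq2, and 1 at 7000 µM.

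The gene at the far end of the row, cyp2k6 (ENSDARG00000098995), had few reads below 3500 µM, and its values are given as a description. It took 2, 5 and 7 reads in controls and 2 to 21 reads per library at 7, 70 and 700 µM, and then 35, 19 and 40 reads at 3500 µM and 30, 43 and 28 reads at 7000 µM. The log2 fold change was 0.04 ± 0.77 at 700 µM, 2.78 ± 0.59 at 3500 µM and 2.79 ± 0.59 at 7000 µM, with all 3 exposed libraries above the control range at both of the highest concentrations.

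The reads of cyp2k6 fell mostly on one or the other of its annotated transcripts, differing from library to library. In a fit per transcript, the one with the higher mean count was not called at 3500 or 7000 µM.

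None of the other 4 tested cyp2k genes was called higher, and cyp2k16 fell at the highest concentration. For cyp2k16 there were 35, 38 and 24 reads at 7000 µM and 77, 50 and 60 reads in controls, a log2 fold change of -0.95 ± 0.26 (adjusted p = 0.014). That call was lost without control replicate 1 (adjusted p = 0.067) or without 7000 µM replicate 3 (0.085). For cyp2k19, whose control mean of 2.18 TPM was next to the 2.63 TPM of cyp2k16, the highest among the relatives, the log2 fold changes were between 0.29 and 0.51 (lowest adjusted p = 0.11, at 3500 µM).

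For cyp2k21, with 5 to 19 reads per library, the log2 fold changes were between 0.77 and 1.06, with adjusted p between 0.12 and 0.89. cyp2k8 had log2 fold changes between -0.36 and 0.41 (lowest adjusted p = 0.51). The 4 genes that did not pass the filter had at most 11 reads in any library, cyp2k17 having the highest count and cyp2k20 reaching 10.

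**Figure D2:**
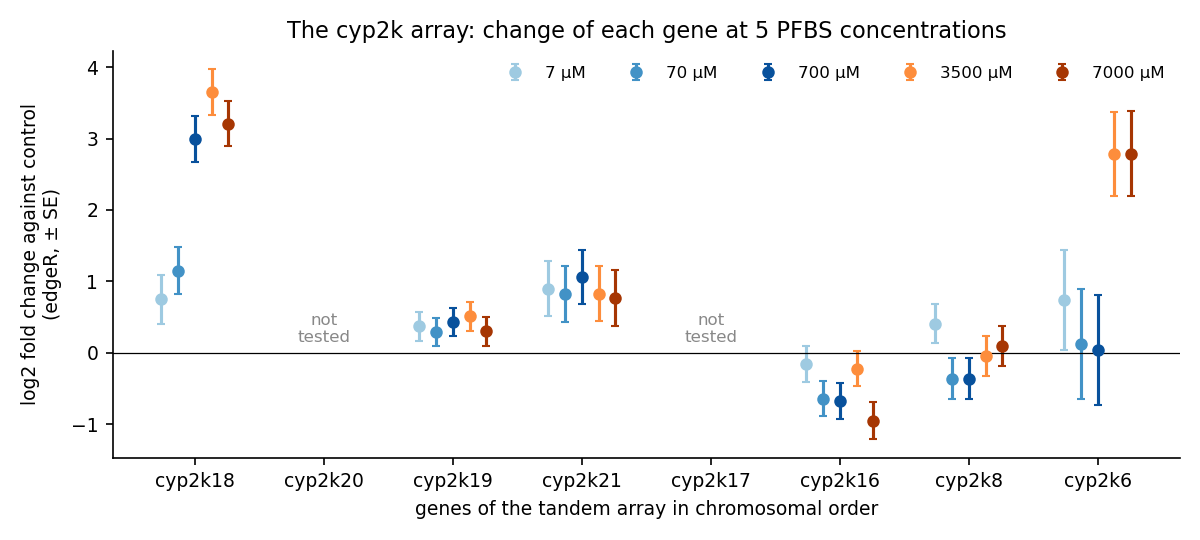
Log2 fold change against controls (edgeR, ± SE) at 7, 70, 700, 3500 and 7000 µM for the 8 genes of the row, in chromosomal order, with colours for concentration. At 700 µM cyp2k18 stands at 2.99 and the other tested genes lie between -0.67 and 1.06, while at 3500 and 7000 µM cyp2k6, a gene that passed the filter only through those groups, stands at 2.78 and 2.79.

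The genes on the other side of cyp2k18 were not called by edgeR. The nearest is abca3b, which encodes a lipid transporter of the ABC family and ends 10444 bases before cyp2k18, while cyp2k20 begins 2667 bases after its end. Beyond abca3b lie ccnf (cyclin F), vasnb, pam16 (a subunit of the mitochondrial import motor) and glis2b (a zinc finger transcription factor). In 25 tests of these 5 genes over 5 concentrations edgeR called 0, with 3 at an unadjusted p under 0.05 and log2 fold changes between -0.8 and 0.52. The lowest adjusted p was 0.055, for pam16 at 7000 µM, and DESeq2 called pam16 at 7000 µM and 0 of the 5 at each other concentration. The log2 fold change of abca3b was between -0.17 and 0 at all 5 concentrations.

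The genes whose levels followed cyp2k18 most closely across libraries spanned much smaller folds. Likeness was measured as Pearson's r of log2 CPM (prior count 2) over the 18 libraries. The 10 highest were bbox1 and proca1 (r = 0.92 each), crygm2d6 and grpel1 (0.90 each), mrps27 and eif3jb (0.89 each), and crygm2d7, crygm2d3, crygm2d20 and letm2 (0.88 each). Over all other genes tested the median r was -0.01 with 27 genes over 0.85. These 18 points share the groups, and any gene that rises with concentration has a high r, so the values describe the libraries and carry no test.

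bbox1 encodes the enzyme of the last step of carnitine synthesis. Its level was 12, 10.8 and 13.3 CPM in controls, 14.2, 14.5 and 14.1 CPM with 7 µM, 17.8, 15.9 and 14.8 CPM with 70 µM, and 21.9, 21.6 and 21.7 CPM with 700 µM. It was 24.7, 27 and 21.7 CPM with 3500 µM and 32.3, 26.1 and 26.9 CPM with 7000 µM, so all exposed libraries were above the controls and the highest mean was at 7000 µM. The fold against controls at that concentration was 2.36 for bbox1 and 9.23 for cyp2k18.

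Of the 10, 4 are gamma M crystallins, structural proteins of the fish lens, and their mean levels at 3500 µM were 1.51- to 1.66-fold those of controls. Among the others, grpel1 encodes a nucleotide exchange factor of mitochondrial Hsp70, mrps27 a protein of the mitochondrial ribosome, letm2 a protein of the inner mitochondrial membrane and eif3jb a subunit of a translation initiation factor. Their folds at 3500 µM were between 1.22 and 1.42. The 5 genes most opposite to cyp2k18 were atf2, prdm11, si:ch73-15n24.1, ehd3 and cyldl, with r between -0.84 and -0.83.

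Ranked by Spearman's rho instead, the 10 most like genes shared 2 with the list above, proca1 and mrps27. The first was nfe2l2b (rho = 0.92), a paralog of the Nrf2 regulator of the oxidative stress response. The identity of the most like genes thus depended on the measure of likeness.

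**Figure D3:**
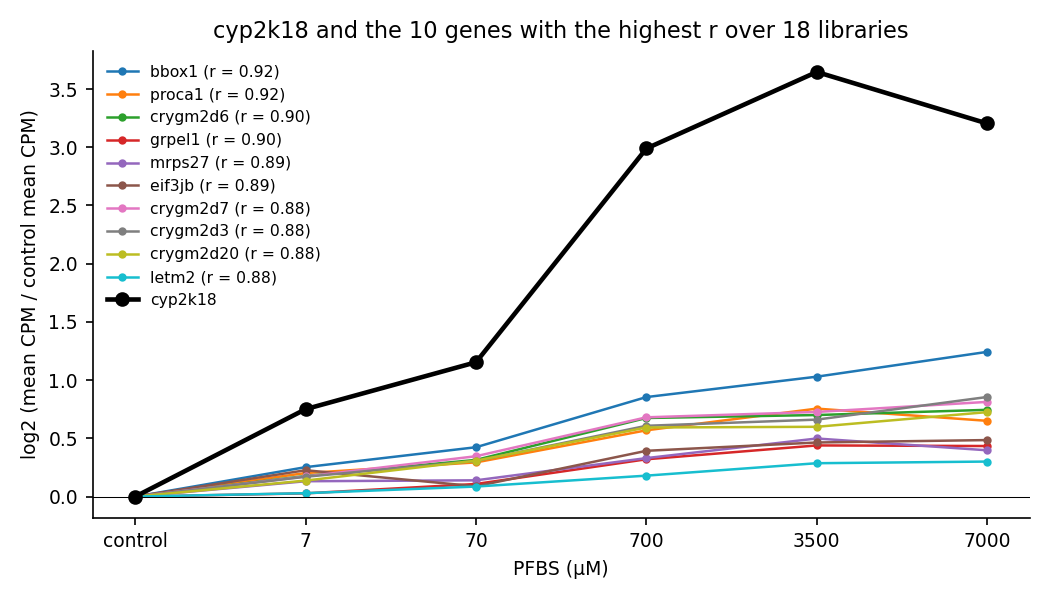
Log2 ratio of mean CPM to the control mean, against PFBS concentration in µM, for cyp2k18 (black) and the 10 genes with the highest Pearson r over 18 libraries. cyp2k18 reaches 3.65 at 3500 µM, and the highest point of the other genes is 1.24, for bbox1 at 7000 µM.

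A different set of genes varied with cyp2k18 between libraries of the same group. Here each library's log2 CPM was taken as a deviation from its group mean, which removes the concentration. The 5 highest were elovl2 (r = 0.94), wu:fa56d06 (0.91), prss59.1 (0.91), ela2 (0.90) and slc23a1 (0.90), over 18 libraries, where the median of all genes was 0.01. Without 70 µM replicate 1, the library farthest from its group, the 5 values were 0.88, 0.82, 0.81, 0.79 and 0.77. Of the 5 genes only elovl2 was then still among the 5 highest, which were B3GAT1 (0.89), crlf3 (0.88), elovl2 (0.88), smad1 (0.84) and c6ast3 (0.84).

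elovl2 encodes an elongase of polyunsaturated fatty acids, active in liver. Its levels were 3.43, 4.1 and 3.24 CPM in controls, 7.96, 7.32 and 7.57 CPM with 7 µM and 12.3, 6.8 and 7.35 CPM with 70 µM. With 700 µM they were 9.31, 10.3 and 12.3 CPM, with 3500 µM 8.64, 9.27 and 8.69 CPM, and with 7000 µM 8.5, 7.94 and 7.29 CPM. All exposed libraries exceeded the controls. In each of the 6 groups the highest library was the same as for cyp2k18, which the choice of elovl2 by deviations within groups favoured.

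Deviations from group means, which also make up the spread used in the test, chose elovl2 here. Earlier results on these libraries had already shown it higher with exposure. The p-values that follow are therefore no independent support for a rise of elovl2. Its log2 fold change was 1.09 ± 0.19 with 7 µM (edgeR, adjusted p = 0.056), 1.29 ± 0.19 with 70 µM (0.0063), 1.57 ± 0.19 with 700 µM (0.00064), 1.31 ± 0.19 with 3500 µM (0.00077) and 1.14 ± 0.19 with 7000 µM (0.00081). The gene thus had 2.12-fold its control level at 7 µM, where cyp2k18 had 1.68-fold, and 2.97-fold at 700 µM, where cyp2k18 had 7.95-fold. The elovl2 calls at the 4 highest concentrations were kept with any 1 of the 18 libraries left out.

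prss59.1 (a trypsin) and ela2 (an elastase) are digestive enzymes of the exocrine pancreas. All 9 exocrine pancreas markers had within-group r between 0.74 and 0.91 with cyp2k18, and between 0.53 and 0.81 without 70 µM replicate 1. Their summed level was 427 CPM in 70 µM replicate 1 and 396 CPM in 700 µM replicate 3, the libraries in which cyp2k18 was highest in their groups, and 19.6 CPM in 70 µM replicate 2, where it was lowest. The 7 µM group went the other way, with the lowest sum, 72.7 CPM, in replicate 1, where cyp2k18 was highest at 7.18 CPM, and at 7000 µM the highest sum, 231 CPM, was in replicate 2, where cyp2k18 was lowest at 31.4 CPM. The r of the summed level was 0.89, and 0.79 without 70 µM replicate 1.

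None of the pancreas markers was called at any concentration. Their summed level was 123 ± 60.7 CPM in controls and 110 ± 34.9, 177 ± 219, 179 ± 189, 104 ± 23.8 and 181 ± 58.2 CPM at 7, 70, 700, 3500 and 7000 µM (SD, n = 3 each). edgeR called 0 of the 9 at each concentration, 0 had an unadjusted p under 0.05, and DESeq2 called 0 at each concentration. The part of this variation in the spread of cyp2k18 was not tested.

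**Figure D4:**
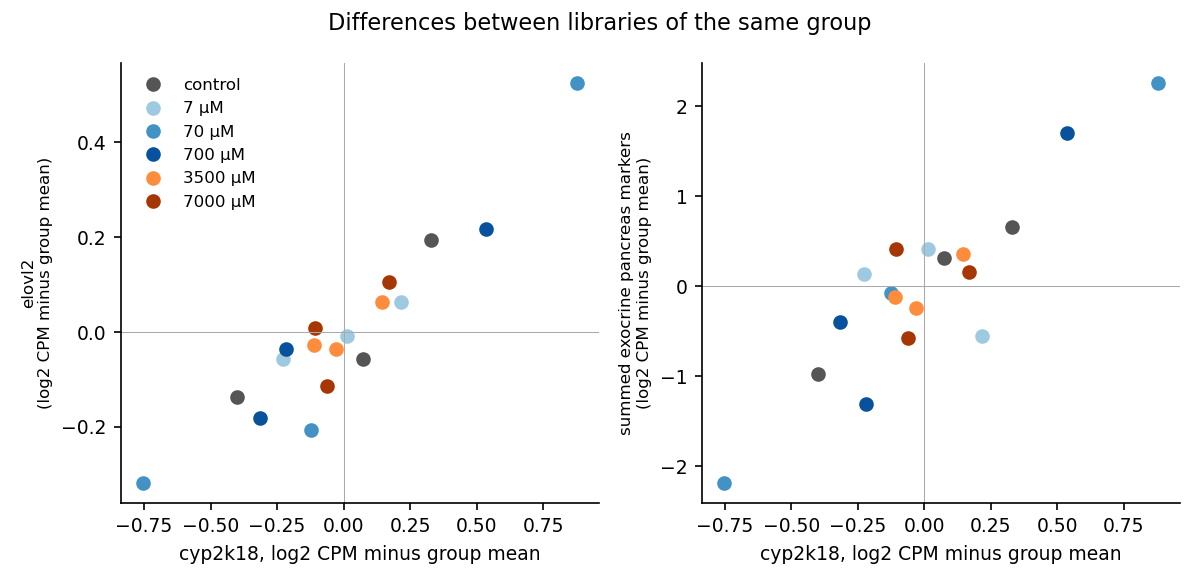
Deviation of cyp2k18 from its group mean (log2 CPM, horizontal) against that of elovl2 (left) and of the summed exocrine pancreas markers (right), for 18 libraries coloured by group. The 70 µM libraries 1 and 2 hold the ends of both clouds, and r is 0.94 for elovl2 and 0.89 for the markers.

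Markers of liver and intestine also varied with cyp2k18 within groups. The summed level of 12 hepatocyte markers had r = 0.71 and that of 10 enterocyte markers 0.74. Exocrine pancreas markers had 0.89 and pronephros markers 0.5, against 0.02 for skeletal muscle, 0.16 for epidermis and -0.41 for neurons. Other than for the pancreas markers, these r were not computed without 70 µM replicate 1. Every marker of these lists had reads in at least 1 library.

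Between groups, hepatocyte markers fell at the highest concentrations. Their summed level was 430 ± 157 CPM in controls, 680 ± 143, 531 ± 224 and 337 ± 231 CPM at 7, 70 and 700 µM, 154 ± 41.2 CPM at 3500 µM and 245 ± 48.8 CPM at 7000 µM (SD, n = 3 each). At 3500 µM 6 of 12 were lower and 0 higher by edgeR and by DESeq2, with 11 of 12 at an unadjusted p under 0.05 (4.33% of all genes were lower), with a median log2 fold change of -1.55 against 0.01 over all genes, and at 7000 µM 4 were lower by edgeR. Of all genes 12.3% were lower at 7000 µM. The number of hepatocyte markers lower at 3500 µM was between 2 (without control replicate 1) and 10 when 1 library was left out. itih3a, a plasma protease inhibitor chain, had a log2 fold change of -2.47 ± 0.39 at 3500 µM (adjusted p = 0.0014), and gc, the vitamin D binding protein, -2.47 ± 0.44 (adjusted p = 0.0029). The enterocyte markers had 1 of 9 higher at 700 and at 3500 µM, against 1.27% and 5.14% of all genes. It was fabp2, which encodes the intestinal fatty acid binding protein, and its calls were lost in 6 and 5 of 18 cases with a library left out. At 7000 µM 2 enterocyte markers were lower. By group mean CPM, cyp2k18 was highest and the summed hepatocyte markers lowest at 3500 µM. The cells that hold its transcript were not measured, and the part of the hepatocyte change in its level was not tested.

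Markers of other tissues also differed in some exposed groups. At 70 µM edgeR called 1 of 7 leukocyte markers lower and DESeq2 4. Of all genes edgeR called 0.095% lower there, and DESeq2 called 116 genes lower. At 700 µM edgeR called 4 of 7 leukocyte markers lower (median log2 fold change -1.08), 2 of 9 epidermis markers lower (-1.1) and 3 of 8 photoreceptor markers higher (0.57). Of all genes 1.93% were lower and 1.27% higher. At 3500 µM, where cyp2k18 was highest, edgeR and DESeq2 called 0 of 11 skeletal muscle, 0 of 9 epidermis and 0 of 5 erythrocyte markers, with 0, 0 and 1 at an unadjusted p under 0.05. There 3 leukocyte markers were lower, and 3 photoreceptor markers were higher and 1 lower, with 4.33% of all genes lower and 5.14% higher. At 7000 µM 12.7% of all genes were higher and 12.3% lower. There 7 of 8 photoreceptor markers were higher, and 7 of 11 skeletal muscle, 7 of 9 epidermis, 5 of 7 leukocyte and 4 of 5 erythrocyte markers were lower. Without 7000 µM replicate 3 these counts were 7 higher and 1 lower for photoreceptor markers, and 5, 5, 3 and 3 lower for the others. Of all genes 11.1% were then called. Within groups, the summed levels of photoreceptor, leukocyte and erythrocyte markers had r = 0.03, 0.15 and -0.07 with cyp2k18, and pronephros markers 0.5. The part of these differences in tissue markers in the levels of cyp2k18 and of its most like genes, the lens crystallins among them, was not tested.

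In the rest of family 2, 1 gene was called higher at all 3 high concentrations. Its calls at 700 and 7000 µM were lost in some fits with a library left out. Of 29 other cyp2 genes tested, 0 were called at 7 and 70 µM by edgeR or DESeq2. An unadjusted p under 0.05 was found for 10 and 8 of them, and for 1057 and 2882 of all 21046 genes tested. At 700 µM 1 was higher and 0 lower (9 at an unadjusted p under 0.05, and 1 higher and 1 lower by DESeq2). That is 3.45% called, against 3.2% of all genes. At 3500 µM 2 were higher and 2 lower (13.8% called, against 9.47% of all genes). At 7000 µM 4 were higher and 5 lower (31% called, against 25% of all genes). The median log2 fold change of these genes was between -0.04 and 0.1 at every concentration.

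That gene was a cyp2y3 gene (ENSDARG00000068493). It took 14, 7 and 7 reads in controls, 17, 22 and 12 with 7 µM and 34, 9 and 8 with 70 µM. There were 43, 50 and 36 reads with 700 µM, 62, 93 and 75 with 3500 µM and 29, 17 and 32 with 7000 µM, so that all libraries at 700 µM and above exceeded the controls. The log2 fold changes there were 2.15 ± 0.45 (edgeR, adjusted p = 0.019), 3.11 ± 0.43 (0.00043) and 1.45 ± 0.47 (0.033).

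With 1 library left out at a time, the cyp2y3 call at 3500 µM held in all 18 cases, that at 700 µM was lost in 4 and that at 7000 µM in 5, with adjusted p up to 0.12. A second gene with the same symbol (ENSDARG00000101423) overlaps it on the same strand and was not called at any concentration, with a log2 fold change of 0.53 ± 0.18 at 3500 µM (adjusted p = 0.065). The split of reads between these overlapping genes is uncertain.

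Among the other cyp2 genes named by rule, cyp2x8 was higher at 3500 µM (1.6 ± 0.44, adjusted p = 0.031) and not called at 7000 µM (0.71 ± 0.46, adjusted p = 0.27). At 7 µM, where it was not called, cyp2x8 had 3.03, 1.5 and 2.03 CPM, all above the 1.13, 0.926 and 0.884 CPM of controls. With 3 libraries against 3, such a separation without a call is not read as a rise. The share of all genes that show it was not counted. Both limits also hold for porb, alas1, ugt1a1 and cyp3a65 below. At 70 µM it had 4.07, 1.6 and 1.02 CPM, and at 700 µM 2.55, 1.2 and 3.03 CPM, without a call. The cyp2x8 call at 3500 µM was lost in 5 of 18 cases with a library left out. cyp2aa8 was lower at 3500 and 7000 µM, at -0.87 ± 0.26 and -1.24 ± 0.27 on the log2 scale (adjusted p = 0.045 and 0.0039), and cyp2aa3 was lower at 7000 µM at -1.78 ± 0.42 (adjusted p = 0.0061). The cyp2aa8 call at 3500 µM was lost in 12 of 18 such cases (adjusted p up to 0.19), while both calls at 7000 µM were kept in all 18. Of the 4 cyp4 genes, whose family hydroxylates fatty acids, edgeR called 0 at every concentration, with at most 1 at an unadjusted p under 0.05, and DESeq2 called 0.

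Of 10 genes of the proteins that supply P450 enzymes with electrons, 0 were called at 7, 70 and 700 µM, with 1, 1 and 2 at an unadjusted p under 0.05 and 0 by DESeq2. At 3500 µM cyb5a, a cytochrome b5, was higher with a log2 fold change of 0.43 ± 0.12 (adjusted p = 0.04), a call lost in 6 of 18 cases with a library left out (adjusted p up to 0.13). That is 1 of 10, near the 9.47% of all genes called there. At 7000 µM 3 were higher and 2 lower, against 25% of all genes called. The P450 oxidoreductase gene porb stood at 55.6, 62.6 and 47.7 CPM at 7000 µM and at 41.6, 37.8 and 35.1 CPM in controls, 0.53 ± 0.13 higher on the log2 scale (adjusted p = 0.0082), with no overlap. Its libraries at 7 µM (49.6, 52.3 and 42.7 CPM) and 3500 µM (48.1, 54.7 and 49.5 CPM) also lay above all controls, without a call. At 70 and 700 µM its range overlapped with that of controls. The cytochrome b5 reductases cyb5r1 and cyb5r3 were lower at 7000 µM, at -0.48 ± 0.13 and -0.43 ± 0.11 on the log2 scale (adjusted p = 0.014 and 0.01).

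Of the haem genes tested, alas1 was called higher at all 3 high concentrations. At 3500 µM this was 1 of 19 genes (5.26%), near the 5.14% of all genes called higher there. alas1 encodes the rate-limiting enzyme of haem synthesis outside red cells. Its level was 146, 132 and 183 CPM with 700 µM, 156, 158 and 154 CPM with 3500 µM and 169, 143 and 126 CPM with 7000 µM, against 104, 83 and 99.6 CPM in controls. The log2 fold changes were 0.68 ± 0.18, 0.71 ± 0.18 and 0.61 ± 0.18 (adjusted p = 0.047, 0.024 and 0.021). At 7 µM, where edgeR did not call it, alas1 had 166, 112 and 120 CPM, also above all controls. At 70 µM, again without a call, it had 152, 103 and 88.6 CPM. With 1 library left out, the call at 700 µM was lost in 14 of 18 cases, that at 3500 µM in 4 and that at 7000 µM in 2.

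Of the 19 haem genes, 0 were called at 7 and 70 µM (1 and 0 at an unadjusted p under 0.05, and 0 by DESeq2). alas1 was the only call at 700 and 3500 µM (5.26% at each, against 3.2% and 9.47% of all genes). At 7000 µM 3 were higher and 4 lower (36.8% called, against 25% of all genes). The erythroid enzyme alas2 (-1.13 ± 0.27, adjusted p = 0.0069), ferrochelatase fech (-1.07 ± 0.37, 0.041) and urod (-0.87 ± 0.25, 0.018) were lower at 7000 µM. At that concentration 4 of 5 erythrocyte markers were also lower, a list that shares alas2. The fech and urod calls were lost in 7 and 2 of 18 cases with a library left out, and that of alas2 in 0. The part of red cells in these values was not tested.

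Genes of the receptors that control P450 transcription, listed here together with transcription factors such as nfe2l2b, were mostly not called. Of 31 tested, 0 were called at 7, 70 and 700 µM (0, 0 and 1 by DESeq2). An unadjusted p under 0.05 was found for 2, 4 and 5 of them, and for 1057, 2882 and 4429 of all 21046 genes tested. At 3500 µM 2 were higher and 1 lower, and at 7000 µM 4 were higher and 4 lower. These are 9.68% and 25.8% called, near the 9.47% and 25% of all genes. nr1i2, which encodes PXR and is named here after its values were seen, had log2 fold changes between -0.77 and 0.04 and was called nowhere (lowest adjusted p = 0.1). nfe2l2b rose, with 4.76, 4.54 and 3.6 CPM at 3500 µM and 3.67, 4.42 and 2.63 CPM at 7000 µM against 1.82, 1.85 and 1.53 CPM in controls. Its log2 fold changes were 1.3 ± 0.21 and 1.04 ± 0.21 (adjusted p = 0.0014 and 0.0025). At 7000 µM pparg and nr5a2 were lower (-1.69 ± 0.37 and -1.13 ± 0.23, adjusted p = 0.0039 and 0.0027), and nr1h5, of the bile acid receptor group, was higher (1.11 ± 0.31, adjusted p = 0.015).

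Of 13 targets of the AhR, edgeR and DESeq2 called 0 higher at each concentration, and edgeR called 1, 1 and 2 lower at 70, 700 and 7000 µM. These are 7.69%, 7.69% and 15.4%, against 0.095%, 1.93% and 12.3% of all genes called lower. At 7 and 3500 µM edgeR called 0, with 1 and 2 at an unadjusted p under 0.05, and DESeq2 called 0 and 1 lower. The classic target cyp1a had 4.71, 3.7 and 3.48 CPM at 7000 µM against 6.97, 7.15 and 4.89 CPM in controls, a log2 fold change of -0.68 ± 0.23 (adjusted p = 0.042), and the call was lost in 5 of 18 cases with a library left out. At 3500 µM its log2 fold change was -0.5 ± 0.23 (adjusted p = 0.17). foxq1b, a transcription factor gene, was the lower one at 70 and 700 µM (-1.29 ± 0.26 and -1.45 ± 0.26, adjusted p = 0.036 and 0.0097), with the calls lost in 7 and 1 of 18 cases with a library left out.

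Of 14 genes linked to PXR, 0 were called at 7 and 70 µM (1 and 0 by DESeq2). An unadjusted p under 0.05 was found for 8 and 3 of them, and for 1057 and 2882 of all 21046 genes tested. At 700 µM 1 was higher (7.14% called, against 3.2% of all genes). At 3500 µM 3 were higher and 0 lower (21.4% called, against 9.47%), and at 7000 µM 2 were higher and 2 lower (28.6% called, against 25%). The conjugating enzyme gene ugt1a1 had 29.5, 29.1 and 38.2 CPM with 700 µM, 39.6, 32.8 and 37 CPM with 3500 µM and 28.2, 25.4 and 27.8 CPM with 7000 µM, against 18.8, 19.8 and 16.8 CPM in controls. Its log2 fold changes were 0.8 ± 0.17, 0.98 ± 0.17 and 0.55 ± 0.17 (adjusted p = 0.021, 0.0029 and 0.028), and all libraries at these concentrations exceeded the controls. At 7 µM, where edgeR did not call it, ugt1a1 had 29.7, 27.6 and 23 CPM, also above all controls. At 70 µM, again without a call, it had 32.1, 20 and 17.5 CPM. With 1 library left out its calls were lost in 6, 0 and 5 of 18 cases. At 7000 µM abcb5 of this list was called lower and cyp2aa4 higher. With 1 library left out their log2 fold changes lay between -1.72 and -0.78 and between 0.77 and 0.91. The abcb5 call was lost in 4 of 18 cases and that of cyp2aa4 in 0.

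The drug-metabolising P450 gene cyp3a65 was 211, 182 and 164 CPM at 3500 µM against 93.4, 85.7 and 78.6 CPM in controls, 1.11 ± 0.32 on the log2 scale (edgeR, adjusted p = 0.041). The call was lost with DESeq2 (adjusted p = 0.056) and in 6 of 18 cases with a library left out. edgeR did not call cyp3a65 at the other concentrations. Its libraries at 7 µM (178, 116 and 125 CPM), 700 µM (186, 158 and 231 CPM) and 7000 µM (153, 110 and 127 CPM) all lay above the controls. The share of all genes with such a separation was not counted, and it is not read as a rise. At 70 µM its levels were 270, 80.1 and 85.3 CPM, and the high library was replicate 1, as for cyp2k18.

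Of 35 lipid genes linked to PPAR, edgeR called 0 at 7 µM (7 at an unadjusted p under 0.05, 1 by DESeq2). At 70 µM 1 was higher (2.86% called, against 0.28% of all genes), and at 700 µM 4 were higher (11.4% called, against 3.2%). DESeq2 called 3 and 5 higher there. Over all genes it called 212 and 1077, of which 96 and 390 were higher. With 1 library left out, 0 to 2 were higher at 70 µM and 0 to 6 at 700 µM. At 3500 µM 13 were higher, 1 was lower and 21 were not called (40% called, against 9.47% of all genes). At 7000 µM 5 of the PPAR linked genes were higher and 1 lower (17.1% called). Their median log2 fold change at 3500 µM was 0.2, against 0.01 over all genes. At 7000 µM 25% of all genes were called. With 1 library left out, the number higher at 3500 µM was between 6 (without control replicate 1) and 15 (without 7000 µM replicate 3), and the difference between concentrations was not tested. At 3500 µM the log2 fold change of the mitochondrial uncoupling protein gene ucp3 was 1.91 ± 0.27 (adjusted p = 6e-04) and that of pdk2b, which encodes a kinase that inhibits pyruvate dehydrogenase, 1.83 ± 0.34 (0.0047). The fatty acid binding protein gene fabp1b.1 had 1.27 ± 0.36 (0.035), and fabp10a, a hepatocyte marker, was lower (-1.64 ± 0.38, adjusted p = 0.014). With 1 library left out, the calls of ucp3 and pdk2b at 3500 µM were kept in all 18 cases, and those of fabp1b.1 and fabp10a were lost in 5 and 2.

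Counts at 7000 µM were smaller for most of these lists without replicate 3, when 11.1% of all genes were called. The other cyp2 genes then had 2 higher and 4 lower, and the electron transfer genes 2 higher and 1 lower. The haem genes had 2 higher and 1 lower, and the receptor list, with nfe2l2b, 3 higher and 2 lower. The calls of cyp2k16, cyp2y3, cyb5r1, fech, urod and cyp1a at 7000 µM were lost, and those of cyp2aa8, cyp2aa3, porb, alas1, alas2, nfe2l2b, pparg, nr5a2 and nr1h5 were kept. The PXR list kept 1 call, cyp2aa4, and the PPAR list had 6 higher and 1 lower. Hepatocyte markers had 2 lower, gc and itih3a.

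**Figure D5:**
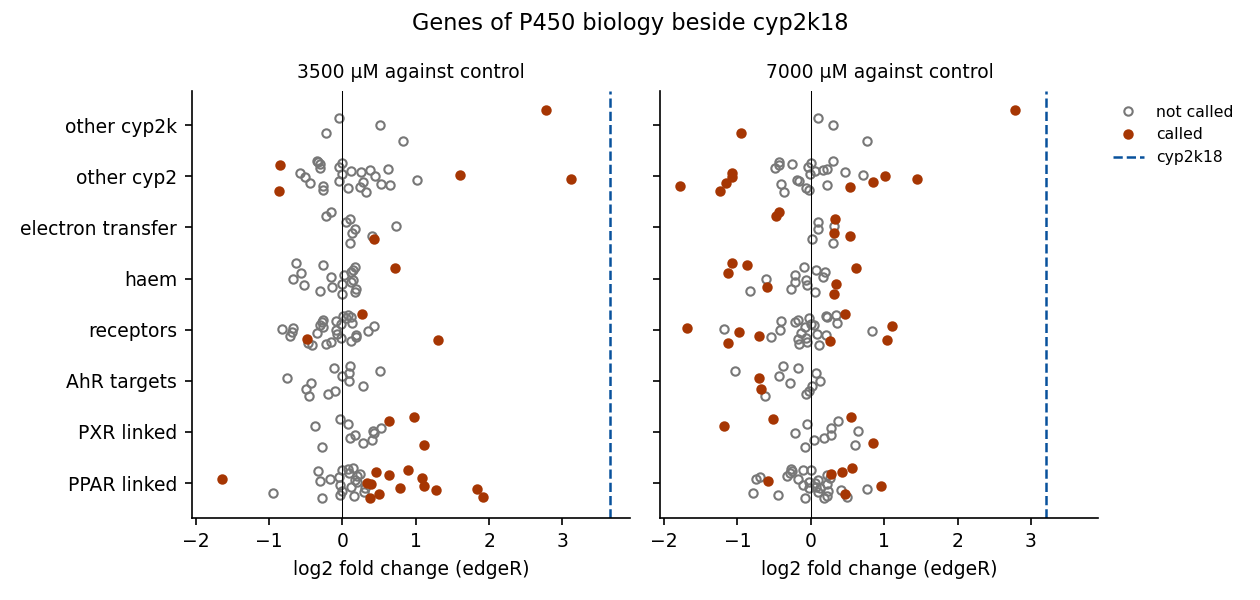
Log2 fold change against controls (edgeR) of the tested members of 8 gene lists at 3500 µM (left) and 7000 µM (right). Filled points passed an adjusted p under 0.05, open points did not, and the dashed line marks cyp2k18, at 3.65 and 3.21. No member of any list reaches the line, and the nearest are cyp2y3 at 3.11 at 3500 µM and cyp2k6 at 2.79 at 7000 µM.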

How the data were processed

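The authors deposited, per the file headers, whole-number read counts for each annotated Ensembl transcript and library, and TPM, which are scaled for transcript length and to the same total in every library. The authors' deposited table also holds log2 fold changes of each concentration against controls. The labels name no aligner, counting program, genome build, strand setting or rule for reads that match several genes. RNA came from an RNAzol extraction, per the labels' protocols.

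Counts were summed over the transcripts of each gene, and genes with few reads were removed with filterByExpr, leaving 21046 of 32520. All 18 libraries entered 1 edgeR (4.0.16) quasi-likelihood fit with TMM factors and a mean for each group, in R 4.3.3 (limma 3.58.1). Contrasts with controls were tested with its two-sided F test, with p-values adjusted over all genes tested by the Benjamini-Hochberg method and a threshold of 0.05. The biological coefficient of variation, the square root of edgeR's dispersion common to all genes, was 12.9%. It leaves out counting error, unlike the coefficients of variation of CPM given above. In all 18 pairs of libraries from 1 group the difference exceeded sampling noise (chi-square per degree of freedom from 5.5 to 61.6). The script was tested on simulated counts before use. Likeness used log2 CPM with a prior count of 2. DESeq2 1.42.0 was an alternative.

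The gene, the lists and the tests were chosen with earlier results of these data known, and the cyp2 and cyp4 lists were narrowed to genes of those families after the table was seen. Named genes are the cyp2k genes, the 5 nearest genes on each side, the 10 most like, 5 most opposite and 5 most like within groups, and up to 4 called members of each list, by size of change at 3500 or 7000 µM. Leaving out each library, DESeq2, other size factors, no filter, single transcripts and a replicate block were tried.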

Additional observations from a re-analysis of the deposited data

How the results depend on the processing

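The fold of cyp2k18 kept its sign under every alternative. With other size factors, no factor, single transcripts, DESeq2, a replicate block or mean TPM it moved by less than the spread between libraries. These alternatives refit or rescale the same reads, and the 1 transcript of cyp2k18 has the counts of the gene. A close result was thus nearly fixed in advance. Leaving out 1 of 3 libraries can hardly move a fold beyond a spread that includes that library, so only ranges are given for those fits. With each library left out in turn the log2 fold change of cyp2k18 ranged from 0.57 to 0.92, 0.58 to 1.46 (lowest without 70 µM replicate 1), 2.67 to 3.16, 3.47 to 3.82 and 3.03 to 3.38 in order of concentration. Counts over all genes were less stable. For 7, 70 and 700 µM, edgeR called 7, 59 and 674 genes and DESeq2 called 42, 212 and 1077. Fitted per transcript, the counts were 0, 18, 74 and 1039 at 7, 70, 700 and 3500 µM, against 1994 genes at 3500 µM. The other cyp2k genes, each taken as its transcript with the highest mean count, then had 0 calls at 3500 µM and 1 at 7000 µM. With the replicate block the counts were 3, 37 and 441 at 7, 70 and 700 µM. Libraries that share a number did not visibly vary together (r of their deviations from -0.33 to 0.27 over 45 pairs, and 3 of 18 libraries closest to their own number). Such correlations cannot tell whether samples of the same number shared a clutch or handling.

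With 1 library left out, calls lay between 2 and 13 at 7 µM (lowest without replicate 1 at 7 µM, highest without replicate 3 at 70 µM), 8 and 289 at 70 µM (without its replicates 1 and 3), and 42 and 1302 at 700 µM (without its replicate 1, and without replicate 3 at 7000 µM). They lay between 478 and 3333 at 3500 µM (without control replicate 1, and without replicate 2 at 3500 µM) and between 2362 and 5701 at 7000 µM (without its replicate 3, and without replicate 2 at 3500 µM), where all libraries gave 5259. The other cyp2k genes had 0 calls at the 3 lowest concentrations in all cases, 0 to 2 with 3500 µM and 1 to 2 with 7000 µM. Ranked by Spearman's rho, 2 of the 10 most like genes were shared with those ranked by Pearson's r. Within groups, in alternatives added after the data were seen, the 5 most like genes shared 1, elovl2, with those named when 70 µM replicate 1 was left out, and 2, elovl2 and wu:fa56d06, by Spearman's rho. Over 3082 comparisons of a named call with an alternative, 2690 kept the call, 392 lost it (323 of them with a library left out and 52 per transcript) and 0 changed sign. The causes were not tested. Each named call had passed in the main fit, and list members were named by size of change. That 0 changed sign was thus nearly fixed in advance. In 2412 of the comparisons 1 library was left out, mostly from neither group compared. The kept total, and the counts of kept or lost cases given above, can therefore overstate how stable the calls are. The total includes the cyp2k6 calls, which are not read as a result. In controls and at 7 µM cyp2k18 had 46 to 128 reads per library. Its coefficient of variation of CPM was 25.2 and 15.6% there, where counting error alone gives 12.7 and 9.41%.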
